A study of Mus musculus with 12 samples.

Results

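Peaks of antibody signal at the very beginning of messages were examined in mouse liver: 929 narrow peaks in the 5′ UTR, in 877 genes, out of 17503 listed peaks with a gene name. A peak belonged to this set when its annotation began with 5′ UTR, its distance from the transcript start was 0 and its width was at most 400 bp. The rule used position and width alone, and neither the change between genotypes nor its evidence. The study profiled N6-methyladenosine (m6A) by RNA immunoprecipitation and sequencing in livers of C57BL/6 mice. Messenger RNA was fragmented and pulled down with an antibody against m6A (IP), and stranded libraries were prepared both from the pulled-down RNA and from the input. There are 12 libraries, 3 each for Mettl3-deficient IP, Mettl3-deficient input, wild-type IP and wild-type input, making 4 groups. How Mettl3 was lost, in which cells, the age and sex of the mice and whether replicates are separate animals are not given in the labels used here, beyond the word postnatal in the title. RNA came from whole liver tissue, so fewer cells of a type and less RNA or methylation per cell cannot be told apart.

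METTL3 is the catalytic subunit of the complex that writes m6A inside mRNA, mostly in long internal exons and near stop codons. A related mark, m6Am, sits on the first transcribed base beside the cap when that base is an adenosine. It is written by another enzyme, PCIF1, and antibodies against m6A bind it too. Signal in a peak at a transcript start can therefore come from m6Am at the cap, from m6A within the 5′ UTR, or from both, and these sources cannot be told apart in the deposited values.

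Every fold change of a peak is the log2 value that the authors computed for Mettl3-deficient and wild-type liver, and its evidence is the log10 of their false discovery rate (FDR). A peak was called at an FDR of 0.05 or below. No value per library was used here, so the spread between mice and the read depth are unknown for every peak. The file does not say which genotype is on top of the ratio. Since the design sets loss of the methyltransferase against wild type, negative values likely mean less enrichment in Mettl3-deficient liver, but this was not tested, and changes are given below as negative or positive.

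The label of the set was compared with RefSeq starts on GRCm38.p6, the build also known as mm10. Of the 929 peaks, 919 carried a RefSeq symbol or synonym and 764 had an entry in the table of promoters. In 415 of the 764 (54.3%) the peak held a RefSeq start of its gene. In 138 of the 415 that start was exactly the 5′ edge of the peak, and in 304, these included, it lay at most 30 bp inside the edge. Over all 415 the median distance from the edge was 11 bp. A further 217 peaks had the nearest RefSeq start outside the peak but within 100 bp of its 5′ edge, and in 34 it was more than 1000 bp away. The authors annotated transcripts with Ensembl IDs, and these can start elsewhere than the RefSeq transcripts.

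The bases around the RefSeq starts of 16 genes are printed here, which is not the whole sequence under their peaks. The genes were chosen among called peaks that hold a RefSeq start: the 5 most negative, the 5 most positive and the 4 at the lowest FDR in each direction. The lowest-FDR genes were added after the values were seen, and on the negative side they include Ugt2b38 and Pelo again. Each line gives 30 bases, from 10 before the RefSeq start to 20 from it, read 5′ to 3′ on the strand of the gene, from RefSeq GRCm38.p6. The capital marks the first transcribed base of the RefSeq transcript. In Ugt2b38, Smpd1, Sash1, Olfml3 and Fth1 that base is the 5′ edge of the peak, so the 10 bases before it lie outside. In Fam222a it lies 235 bp inside the edge of a peak of 300 bp, and in Pelo 96 bp inside one of 120 bp.
Ssu72, negative, chr4:155704805-155704834, plus strand: tgacgtgcttCtagaagtccagtgactctg
Fam222a, negative, chr5:114568241-114568270, plus strand: gacggcgcttCcggacgcagggatcgccct
Ugt2b37, negative, chr5:87254769-87254798, minus strand: tgtgaagagaAggattttgattttcaggat
Ugt2b38, negative, chr5:87424184-87424213, minus strand: aaaagtaaatGgactgtgaagagaaggatt
Pelo, negative, chr13:115090139-115090168, minus strand: gccggcgactGgaagtcccgagagttgact
Slx1b, negative, chr7:126695764-126695793, minus strand: cttgcacaccCtcctcctgccagcaggcgg
Smpd1, negative, chr7:105554350-105554379, plus strand: ttgctgggccAtaagaggaacaggaagggg
Sash1, positive, chr10:8886051-8886080, minus strand: ggccgggctaGgaaaagtttctggagttgt
Olfml3, positive, chr3:103737982-103738011, minus strand: ccccgcccccAgagctaacgggctggaggg
Rev1, positive, chr1:38129647-38129676, minus strand: ggggaggggcGgagctgccgcggaggcgcg
Ube2c, positive, chr2:164769919-164769948, plus strand: ccgcagccccGcagttgccctttcctctcc
Saa2, positive, chr7:46751823-46751852, plus strand: acctacacccAtagaccaccagatctgccc
Gnmt, positive, chr17:46729146-46729175, minus strand: cctgagagccAggcgccggtcaggatggtg
Ifitm3, positive, chr7:141010725-141010754, minus strand: gccaaaattcAggaaaaggaaacttctgag
Fth1, positive, chr19:9982636-9982665, plus strand: ctgattggccAgcgctcgcctgacgcagga
Spp2, positive, chr1:88407000-88407029, plus strand: tcatctctacTgaggttccagattgctcca
Of these 16, 6 begin with an A that follows a C, the pair in which m6Am is commonly found: Smpd1 among the 7 negative genes, and Olfml3, Saa2, Gnmt, Ifitm3 and Fth1 among the 9 positive ones. The genes were picked by their values, so these counts describe the printed starts only, and the shares over all peaks that hold a start are given at the end.

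The peaks of the set were mostly positive. Of the 929, 526 (56.6%) were called positive and 68 (7.32%) called negative, while 335 were not called. Over all 17503 listed peaks, 35.6% were called positive and 40.6% called negative, and 76.2% were called in either direction. Among called peaks of the set 11.4% were negative (95% Wilson interval 9.13 to 14.3), against 55.2% of the called peaks among the other 16574 (54.3 to 56.1). These intervals cover counting error over peaks, which are not replicates, and no test across peaks was made. The median log2 fold change was 0.84 in the set, with quartiles of 0.54 and 1.15, against 0.14 in the other listed peaks, with quartiles of -1.31 and 0.77. The median itself was not particular to the set. Narrow 5′ UTR peaks away from the start had 0.79, with quartiles of -0.8 and 1.32. Narrow 3′ UTR peaks had 0.57, with quartiles of -0.95 and 0.92. Over all listed peaks the median came to 0.34, and 6 of the 526 called positive peaks lay below it. Few values lay near 0: only 8 of the 929 were within 0.25 of it, although 335 were not called. Of the other 16574 peaks, 46 lay between -0.25 and 0 and 72 between 0 and 0.25. Medians and shares thus describe a list with few unchanged peaks.

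**Figure D1:**
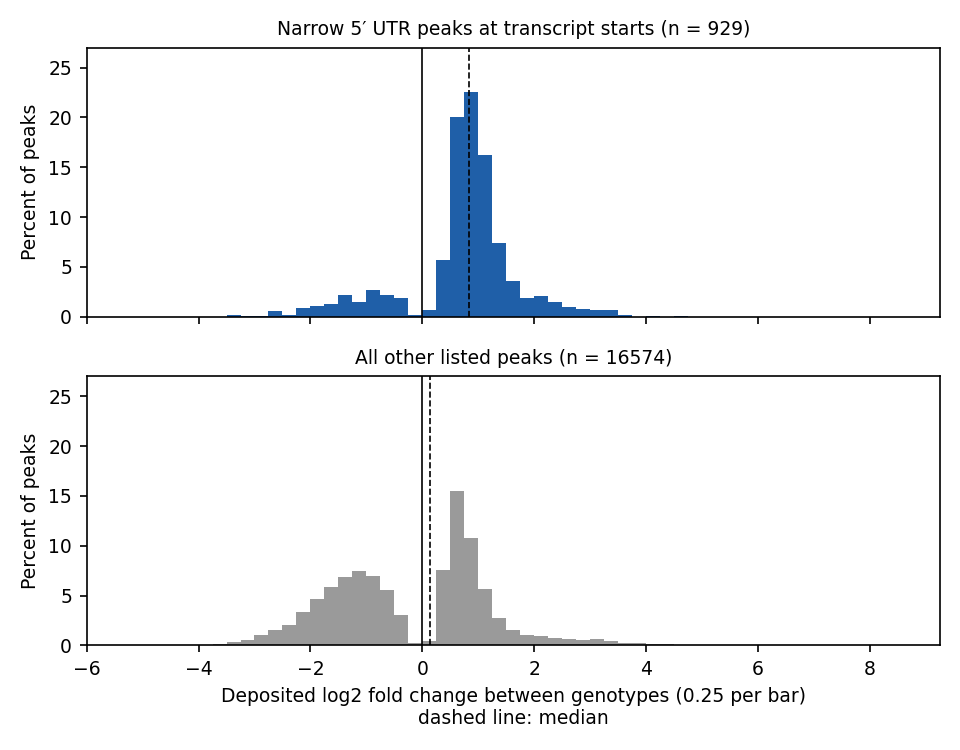
Distribution of the deposited log2 fold change (x axis, 0.25 per bar) as percent of peaks (y axis) for the 929 narrow 5′ UTR peaks at transcript starts, above, and the 16574 other listed peaks, below. Solid lines mark 0 and dashed lines the medians, 0.84 and 0.14: the hump of negative values that the other peaks show is small in the narrow start peaks.

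The positive changes were of moderate size and the fewer negative ones were larger. Called positive peaks had a median of 0.87, a ratio of 1.83, with quartiles of 0.67 and 1.08, and 341 of the 526 (64.8%) were below 1 on the log2 scale. Called negative peaks had a median of -1.28, a ratio of 0.41, with quartiles of -1.81 and -0.79. At an absolute change of at least 1, the set held 185 called positive and 41 called negative peaks, and over all listed peaks 7.80% and 29.0% passed these limits. Most of the largest values did not pass the threshold: 84 peaks of the set reached an absolute value of 2, and 57 of them were not called. Among the other listed peaks 838 such values were not called. Called ones numbered 1040, 212 and 272, at log10 FDRs of -10 or below, up to -3 and up to the threshold. For narrow 3′ UTR peaks 285 were not called, against 176, 68 and 82 in these ranges. For narrow exon peaks 312 were not called, against 99, 60 and 80. Peaks of the set that were not called held 264 positive and 71 negative values. Their negative share, 21.2% (95% Wilson interval 17.2 to 25.9), stood against 26.2% of narrow 3′ UTR peaks that were not called (24.0 to 28.5) and 32.6% of all other listed ones, so positive values were the majority there too. They were narrower, with a median width of 181 bp, than called peaks of the set, with 241 bp.

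Among called peaks, positive values predominated in the set at each level of evidence. Among the 122 peaks of the set with a log10 FDR of -10 or below, 14.8% were negative (95% Wilson interval 9.54 to 22.1), against 61.4% of 1015 narrow 3′ UTR peaks with such evidence (58.3 to 64.3). Between -10 and -3 the shares were 7.36% of 231 and 35.3% of 1231, and between -3 and the threshold 13.7% of 241 and 30.9% of 1038. Narrow exon peaks in the same 3 ranges were negative in 67.5%, 65.8% and 58.7%.

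**Figure D2:**
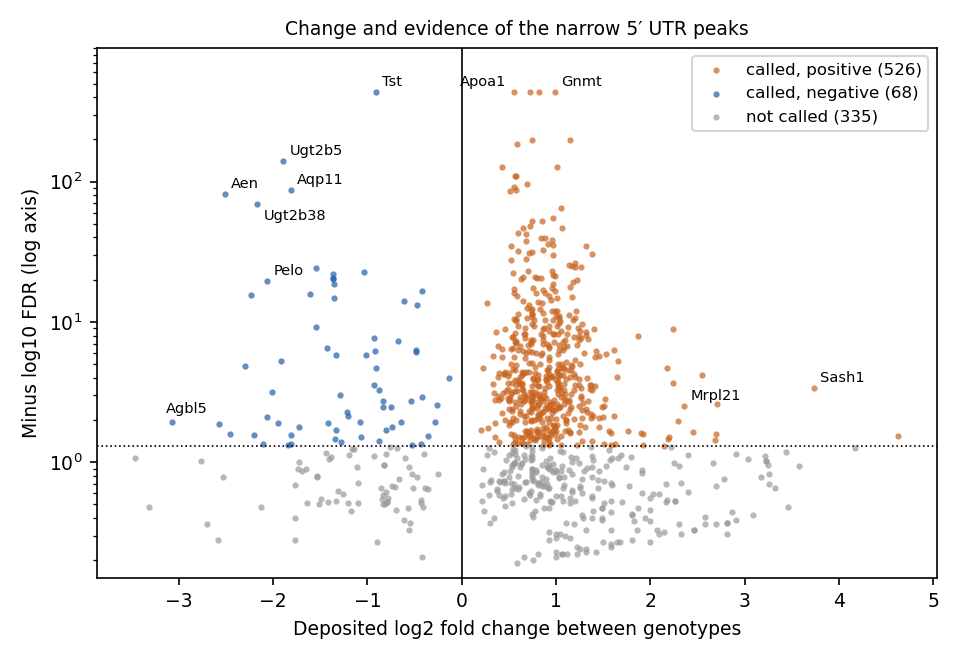
Deposited log2 fold change (x axis) against minus log10 FDR (y axis, log axis) for each of the 929 narrow 5′ UTR peaks. The dotted line marks an FDR of 0.05, above which 526 peaks are positive and 68 negative, and the widest changes of either sign lie near or below that line.

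Width and position both went with the sign. Within the set, no called peak of up to 100 bp was negative: the count was 0 of 36, with a Wilson upper limit of 9.64%. The share was 9.63% of 135 above 100 and up to 200 bp, 11.5% of 252 up to 300 bp and 15.2% of 171 up to 400 bp. Wider 5′ UTR peaks at a transcript start were negative in 24.9% of 441 up to 1000 bp and in 31.2% of 1645 above 1000 bp. The widths run along the genome with introns included, so a wide peak can reach far into the gene. Of the called peaks in the last 10 bp inside the limit 1 was negative and 7 positive, and of those in the first 10 bp outside it 0 were negative and 5 positive.

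At the same width, peaks elsewhere were more often negative. Among called peaks of up to 400 bp, 35.7% of 154 were negative in the 5′ UTR away from the start (95% Wilson interval 28.6 to 43.5), 42.0% of 3284 in the 3′ UTR (40.3 to 43.7) and 63.5% of 905 in exons (60.3 to 66.6). The interval of the set, 9.13 to 14.3, lies below all of these. Narrow peaks at distance 0 that carry an exon label were negative in 28.3% of 113 (20.8 to 37.2), and those with a 3′ UTR label in 48.9% of 45 (35.0 to 63.0). A distance of 0 without the 5′ UTR label thus went with a higher negative share than in the set.

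**Figure D3:**
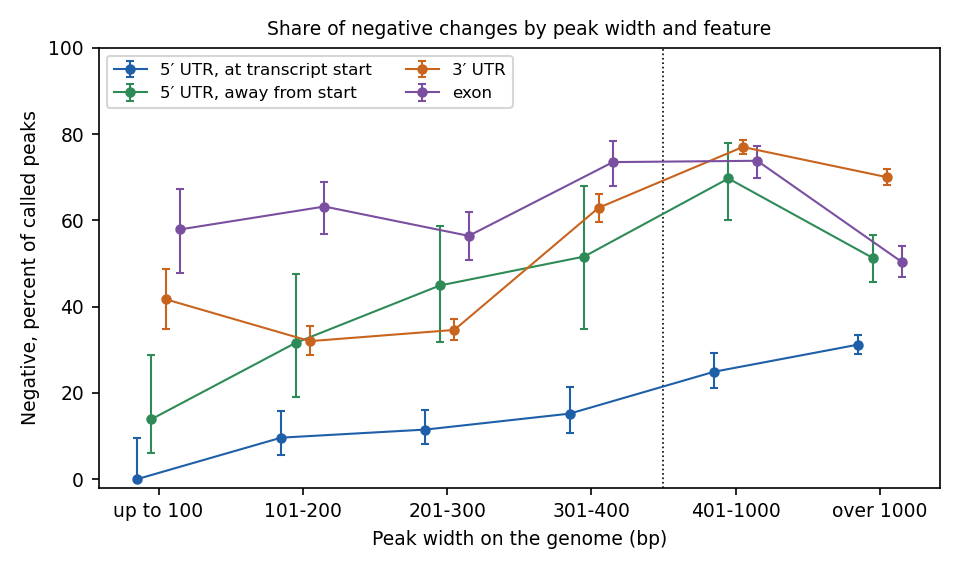
Negative peaks as percent of called peaks (y axis) by peak width in bp (x axis) for 5′ UTR peaks at the start, 5′ UTR peaks away from it, 3′ UTR peaks and exon peaks. Bars are 95% Wilson intervals over peaks, and the dotted line marks the limit of 400 bp: left of it the start peaks run between 0 and 15.2%.

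The widths themselves follow a grid. They ran between 59 and 400 bp with a median of 211 bp, and 751 of the 929 (80.8%) were within 1 bp of a multiple of 30 bp. Several peaks also share their place: 80 peaks lie in 38 loci where at least 1 base is shared with another peak of the set, and 46 genes hold more than 1. In none of these loci did the signs differ. The table has no strand column, and 13 peaks of the set hold RefSeq starts on both strands, so the gene name of such a peak rests on the authors' annotation. With 1 peak per overlapping locus, 63 were called negative and 502 positive.

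Most transcripts behind the set were annotated as protein coding, with 402 called positive and 61 called negative among 714 peaks. Peaks assigned to retained-intron transcripts numbered 94, with 51 called positive and 0 called negative, which allows a negative share of up to 7.0% (Wilson). Transcripts subject to nonsense-mediated decay had 43 positive and 2 negative called peaks among 62, and processed transcripts 26 and 4 among 50.

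Positive peaks held most of the lowest FDRs in the set, just as they made up 526 of its 594 called peaks. Of the 5 peaks at the floor of the FDR scale, a log10 FDR of -434, 4 were positive. For Gnmt, which encodes the glycine methyltransferase that uses up S-adenosylmethionine in liver, the authors' deposited table gives 0.99, a ratio of 1.99. Apoa1, which encodes the main protein of high-density lipoprotein, stands at 0.55 in the authors' deposited table, a ratio of 1.46. The authors' deposited table lists 0.82 for Ifitm3, an interferon-induced membrane protein gene, and 0.72 for Fth1, the gene of the ferritin heavy chain. The negative one was Tst, a mitochondrial sulfurtransferase gene, at -0.91 in the authors' deposited table, a ratio of 0.532. Below the floor the next value in the set was -199.

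The most negative called peaks fell into well supported and weakly supported ones. In the authors' deposited table Aen, a nuclease gene induced by p53, had -2.51, a ratio of 0.176, with a log10 FDR of -81.3. Its peak spans 78902403 to 78902762 on chromosome 7. Pelo, which encodes a ribosome rescue factor, had -2.06 with a log10 FDR of -19.6, by the authors' deposited table. A second, overlapping peak of the set at Pelo stood at -0.92 with a log10 FDR of -6.17 in the authors' deposited table. Aqp11, an aquaporin gene, stood at -1.81 with a log10 FDR of -86.7 in the authors' deposited table. Close to the threshold were Agbl5, a tubulin-processing carboxypeptidase gene, at -3.07 and Ssu72, a phosphatase gene of RNA polymerase II, at -2.57, with log10 FDRs of -1.95 and -1.88 in the authors' deposited table. Hebp2 (-2.46) and the aldehyde dehydrogenase gene Aldh2 (-2.20) were equally near it, at -1.58 and -1.57 in the authors' deposited table. Fam222a had -2.30 with a log10 FDR of -4.89, again by the authors' deposited table.

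Related genes of 1 cluster were negative together. Ugt2b5, Ugt2b37 and Ugt2b38 lie together on chromosome 5 and encode UDP-glucuronosyltransferases, which attach glucuronic acid to steroids and drugs. All 3 had a called negative peak in the set: the authors' deposited table gives -1.89 for Ugt2b5 (log10 FDR -140), -2.23 for Ugt2b37 (log10 FDR -15.6) and -2.17 for Ugt2b38 (log10 FDR -69.5). The starts of Ugt2b37 and Ugt2b38 are printed above. In windows of 50 bases on either side of the start, the longest identical run was 48 bases between Ugt2b37 and Ugt2b38, 41 between Ugt2b5 and Ugt2b38 and 37 between Ugt2b5 and Ugt2b37. Reads can be shared among such genes, so the 3 values are uncertain and need not be independent. The RefSeq start of Ugt2b5, at 87140340, lies outside its peak, which ends at 87140318. Without the family the set had 65 called negative peaks.

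The most positive called peaks had weak evidence and belonged to genes of varied function. Sash1, a signalling scaffold gene, stood highest among established symbols at 3.73, a ratio of 13.3, with a log10 FDR of -3.39 in the authors' deposited table. Next came Olfml3, a secreted matrix protein gene, at 2.71 and Rev1, a translesion DNA polymerase gene, at 2.70, with log10 FDRs of -2.60 and -1.60 in the authors' deposited table. The authors' deposited table gives 2.69 for Lrif1, 2.55 for Ube2c (a ubiquitin-conjugating enzyme of mitosis), 2.45 for Rbm12b2, 2.36 for Mrpl21 and 2.29 for the cohesin gene Stag2. None of these 8 had a log10 FDR below -4.22, the value of Ube2c in the authors' deposited table. Saa2, an acute-phase serum amyloid gene with a near-identical neighbour, had 2.24 with a log10 FDR of -8.90 in the authors' deposited table, and its value is uncertain where reads are shared.

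The 2 ends of the same gene often differed in sign. A called peak of the set and a called 3′ UTR peak were both present in 322 genes, taking the peak with the smallest FDR at each end. This choice can favour negative 3′ UTR peaks in genes with several. Other listed peaks were negative in 72.4% at a log10 FDR of -10 or below, and in 36.7% between -3 and the threshold. In the authors' deposited table Eif4e2 counted as -1.81, while its other called 3′ UTR peaks stood at 0.52, 0.54 and -2.7. Another choice of peak was not tried. Of all called 3′ UTR peaks 60.4% were negative, against 11.4% of called peaks of the set. These shares alone would give many genes with ends of unlike sign, and no comparison with unlinked ends was made. The start was positive and the 3′ UTR negative in 144 genes, and the reverse held in 11. Both were positive in 141 and both negative in 26. The start value was the higher one in 261 of the 322 genes (81.1%), and the median difference, start minus 3′ UTR, was 0.70 on the log2 scale. The medians were 0.80 at the start and -0.40 in the 3′ UTR. Where the 3′ UTR peak was also at most 400 bp wide, the start was higher in 102 of 132 genes with a median difference of 0.32, against 159 of 190 and 1.54 where it was wider.

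The median at a positive start was close whether the other end was negative or positive. Among 285 genes with a positive start, its median was 0.87 where the 3′ UTR peak was negative, with a 3′ UTR median of -1.14, and 0.80 where the 3′ UTR peak was positive, with a 3′ UTR median of 0.67. Among the 37 genes with a negative start, 70.3% had a negative 3′ UTR peak too, against 50.5% of the 285. All of these values come from the same libraries, and the genes are not replicates.

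**Figure D4:**
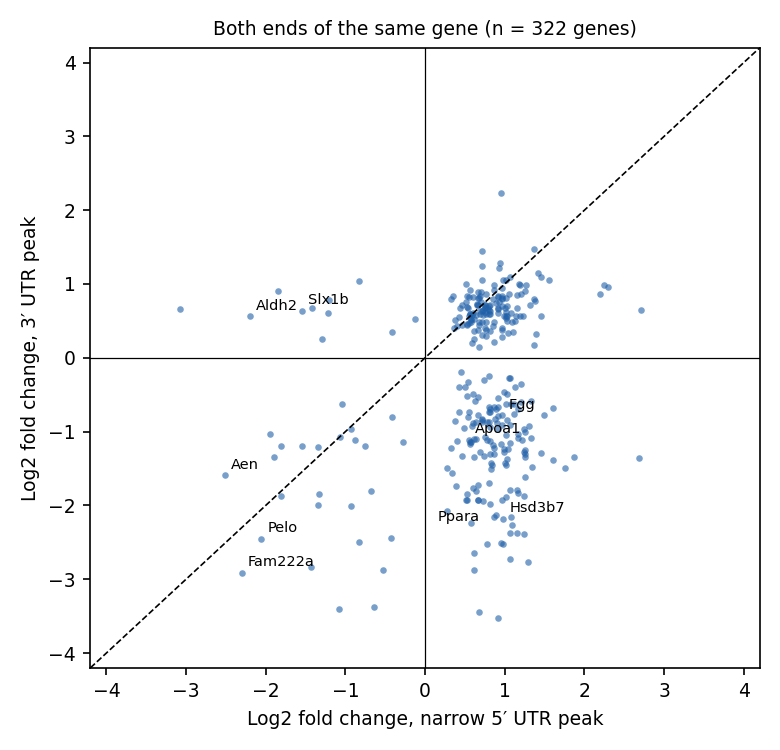
Deposited log2 fold change of the narrow 5′ UTR peak (x axis) and of the 3′ UTR peak (y axis) for 322 genes with both called, 1 point per gene. The dashed line marks equal values: 261 genes lie below it, with 144 in the lower right quadrant (positive start, negative 3′ UTR) and 11 in the upper left.

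Single genes show both patterns. Ppara, which encodes the fatty acid receptor of hepatocytes, stood in the authors' deposited table at 0.89 for the start and -2.13 for the 3′ UTR. Hsd3b7, an enzyme gene of bile acid synthesis, had 0.98 and -2.18, and the fibrinogen gene Fgg 0.97 and -0.78, both in that order in the authors' deposited table. Eif2b2, a subunit gene of the exchange factor for translation initiation factor 2, had 0.74 and -1.33 in the authors' deposited table. The genes with the negative starts described above did not all do the same at their other end. Aen (-1.59, -2.01 and -2.0), Pelo (-2.44 and -2.45 in overlapping peaks), Aqp11 (-1.87), Fam222a (-2.91) and Ugt2b5 (-1.35) were negative in the 3′ UTR as well, by the authors' deposited table. Smpd1, which encodes acid sphingomyelinase, had -1.04 at the start, -3.34 in an exon and -0.63 in the 3′ UTR, by the authors' deposited table. By contrast Agbl5 had 0.66 and Aldh2 0.56 in the 3′ UTR, by the authors' deposited table. Slx1b, at -1.55 at the start, had called 3′ UTR peaks at 0.64 and 1.39 in the authors' deposited table.

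For 246 of the 877 genes the set held all of the gene's listed peaks. Their leading peaks were called negative in 14 and positive in 132, and in the 631 genes with further peaks in 49 and 363. The further peaks themselves, 1058 in number, were evenly divided, with 449 called negative and 451 called positive.

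In the groups of genes for protein synthesis, energy production and protein breakdown no called peak of the set was negative. Only 11.4% of called peaks in the set were negative, and each group is small. For 0 negative calls the Wilson upper limit of each group ran between 25.9% and 39.0%, above that share. No group alone can thus be told apart from the set, and the groups were not pooled. Values below 0 occurred among members that were not called: Rpl30 at -0.52, Eif1a at -0.57 and Ndufa10 at -2.76 in the authors' deposited table. Over all listed genes, 877 of 10277 had a peak in the set. Among 98 listed cytosolic ribosomal protein genes, 15 had one, of which 11 were called positive and 4 were not called, with a median of 0.65. Messages of this family typically begin with a C followed by pyrimidines, whereas m6Am forms on an adenosine. In the authors' deposited table Rpl18 had 0.51, Fau 0.65 and Rpl37 0.88. That peak of Rpl18 begins at 45719284 and does not hold the RefSeq start at 45718071. Another called peak of the set at Rpl18 does hold it and stood at 0.63. Mitochondrial ribosomal protein genes had 11 positive and 1 not called of 12, with a median of 0.62. Mrpl24 (1.01), Mrpl28 (0.88) and Mrps14 (0.98) had the lowest FDRs among them in the authors' deposited table. The other listed peaks of mitochondrial ribosomal protein genes were divided, 54 called negative and 44 called positive. Those of cytosolic ribosomal protein genes were mostly positive like the starts, with 6 called negative and 117 called positive.

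In the next 4 groups, too, the other listed peaks were more often called positive than negative: 115 against 14 for oxidative phosphorylation, 43 against 7 for the proteasome, 58 against 30 for translation factors and 67 against 17 for splicing. Oxidative phosphorylation genes had 9 positive and 2 not called of 11, with a median of 0.62, and Uqcrq (0.43), Ndufb9 (0.55) and Ndufb7 (0.57), subunit genes of respiratory complexes, led by FDR in the authors' deposited table. Proteasome genes had 7 positive and 1 not called of 8, with a median of 0.84, among them Psmb4 at 1.05, Psmd8 at 0.84 and Psmd2 at 0.84 in the authors' deposited table. Translation factor genes had 6 positive and 2 not called of 8, with a median of 0.82, led by Eif2b2, Eif4g2 at 1.20 and Eif4e2 at 0.64 in the authors' deposited table. Splicing genes had 4 positive and 2 not called of 6, with a median of 0.97. They included Prpf19 at 0.77, Snrpd2 at 0.36 and Hnrnpa2b1 at 1.18 in the authors' deposited table. Hnrnpa2b1, an RNA-binding protein proposed as an m6A reader, was the only one of 19 listed genes of the m6A and m6Am list with a peak in the set.

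Of 25 listed genes of abundant secreted liver proteins, 5 had a peak in the set, 4 positive and 1 not called, with a median of 0.74, and besides Apoa1 and Fgg the authors' deposited table gives 0.58 for Apoe. Ppara and Hsd3b7 were the only members among 18 listed genes of hepatocyte transcription factors and 24 of hepatocyte metabolism. The other listed peaks of these lists were mostly negative, with 26 negative and 8 positive called peaks for the transcription factors and 28 and 9 for metabolism. For the secreted proteins they were more often positive, with 15 negative and 25 positive. No endothelial, stellate, leukocyte or cholangiocyte marker gene had a peak in the set. Only 8, 7, 7 and 3 of these genes were listed, and 877 of all 10277 listed genes had such a peak. With lists this short, 0 or 1 member says little. In a shorter list of markers, all 4 for hepatocytes had a listed peak somewhere in the table. So did 2 of 3 endothelial, 2 of 3 stellate, 2 of 3 macrophage and 1 of 3 cholangiocyte markers. These counts are too small to check the tissue.

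The list of cap binding and decapping genes, which also holds La-related proteins, supplied 3 members. Cmtr1, the methyltransferase gene that modifies the ribose of the first transcribed base, had 0.86 with a log10 FDR of -2.75 in the authors' deposited table. Eif4ebp2, whose protein holds back the cap-binding factor eIF4E, had 0.67 at the start in the authors' deposited table, and its leading 3′ UTR peak stood at -1.92. A second called 3′ UTR peak of Eif4ebp2 stood at 0.67 with a log10 FDR of -6.76, so its 3′ UTR peaks differed in sign. Larp4, which encodes a La-related protein that binds poly(A) tails, was negative at -1.95 with a log10 FDR of -1.91 in the authors' deposited table. A wider 5′ UTR peak of Larp4 that overlaps it stood at -2.62 and its called 3′ UTR peak at -1.03, again by the authors' deposited table.

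**Figure D5:**
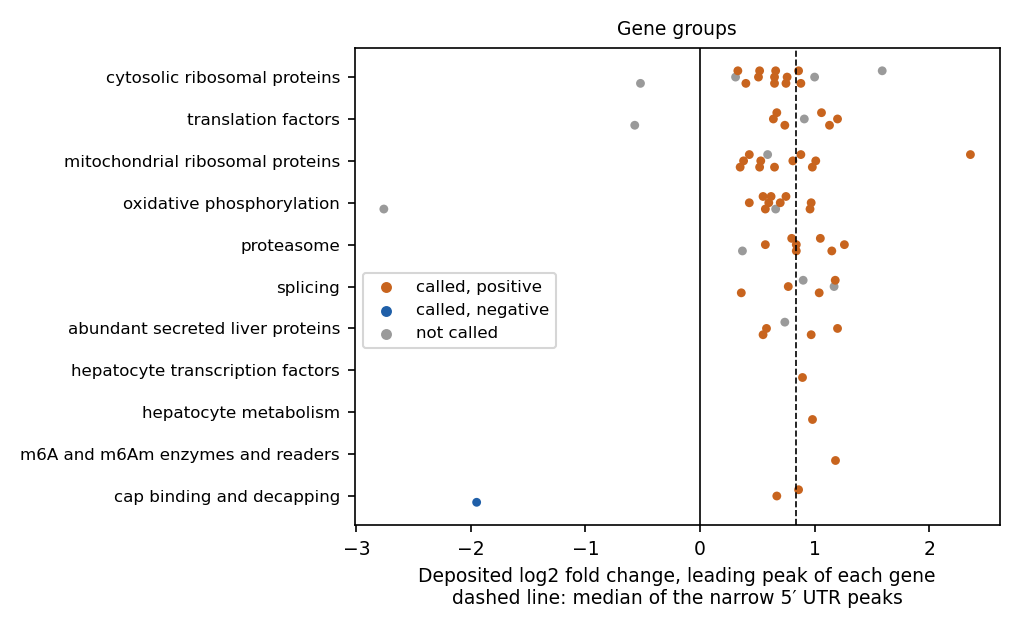
Deposited log2 fold change (x axis) of the leading narrow 5′ UTR peak of each gene, by gene group (rows), with called positive, called negative and not called peaks in separate colours. The dashed line marks the median of the set, 0.84; Larp4 at -1.95 is the only called negative gene in these groups.

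The first base of the RefSeq transcript was A in 31.6% of the 415 peaks that hold a RefSeq start, against 34.4% of the 32851 entries of the promoter table. It was G in 47.0% against 35.6%, C in 15.4% against 16.3% and T in 6.02% against 13.7%. The pair CA, with C just before the start and A at it, was found in 20.5% against 19.2%. By first base, the called peaks were negative in 8 of 92 starts with A, 17 of 131 with G, 6 of 39 with C and 0 of 17 with T. With CA at the start 3 of 57 were negative, 5.26% with a Wilson interval of 1.81 to 14.4, which overlaps that of the set. Starts in the RefSeq table are single annotated positions, while transcription can begin at several bases.

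Motifs were searched on the strand of the gene only. GGAC, the core of the sequence that the METTL3 complex prefers, lay in the first 50 bases of 22.2% of the 415 starts, against 18.9% of all entries. Called peaks with GGAC there were negative in 7 of 60 and those without in 24 of 219. A C followed by 4 pyrimidines was found at 2.65% of starts, against 2.51% of all entries. TATAAA between 40 and 21 bases before the start was found in 7 of the 415, or 1.69%, against 1.87%, and 3 of the 5 called peaks among these were negative. These 3 negative peaks belong to 2 genes. The 300-base windows were richer in G and C, with a median of 61.0% against 52.7% over all entries. These matches describe the annotated windows and do not locate a modified base.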

How the data were processed

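MeRIP-seq of Mettl3-deficient and wild-type mouse liver was represented by 1 table of the authors' comparison of peaks, with no values per library; depth and spread between mice are thus unknown. HISAT2 2.1.0 and the build mm10 are named in, and credited to, the submitters' processing notes. Which program called and compared the peaks, with which filters, and how replicates entered, is not given in the sources used here. Each peak carries a deposited log2 fold change, log10 FDR and p-value, per the file headers. The deposited log2 fold change and log10 FDR were handled as a score, since 189 of 17692 rows lack a gene name and a feature label and hold other values in those columns; these rows were left out. The deposited positions, widths and distances, other measures of each peak, sorted peaks into classes.

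Computed here were calls at an FDR of 0.05, counts, medians and 95% Wilson intervals. For each gene the leading peak had the smallest FDR. No test was run across peaks, so no simulation was needed, and the planned edgeR fit could not be made without counts. The members and the 15 gene lists were chosen with earlier results of these data known. Named genes were the 8 most negative and 8 most positive called genes with established symbols, the 4 lowest FDRs in each direction, up to 3 called members of each list, all members of the m6A and cap lists, and the 5 most negative and 5 most positive called genes whose peak holds the RefSeq start; Smpd1, Slx1b, Spp2 and the not called list members were chosen after their values were seen. Without counts the level of Mettl3 could not be checked. Sequences came from RefSeq GRCm38.p6. Python 3.11.15, pandas 2.3.3 and statsmodels 0.14.6 were used.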

Additional observations from a re-analysis of the deposited data

How the results depend on the processing

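The 6 main results on the narrow 5′ UTR peaks were recomputed under 12 alternatives, of which 1 peak per overlapping locus and leaving out the UGT2B family were added after the data were seen. Only the median and the difference in negative share could change sign, and neither did under any alternative. Counts and the plain share have no sign to reverse, so only their size was compared. Of the 72 values 48 stayed within the limits set for them. These were 1.5 times for counts, the Wilson interval of the set or its half-width for shares, and 0.25 for the median. With an FDR threshold of 0.01, 44 peaks were called negative and the difference in negative share from the other listed peaks was -48.3 percentage points, against -43.8 as reported. At 0.001 there were 35 negative and 318 positive calls and a difference of -51.0. The start was higher than the 3′ UTR in 142 of 173 genes with both called, against 261 of 322 as reported. With an absolute log2 change of at least 1, 41 were negative and 185 positive (18.1% negative). The difference was -62.8 and 46 of 58 genes had the higher start. After subtracting the median of all listed peaks the median was 0.50, and all 53 named peaks kept their sign. A width limit of 250 bp left 26 negative and 281 positive calls (8.47%) and 142 of 174 genes with the higher start. A limit of 1000 bp gave 178 and 857 (17.2%), a difference of -39.1 and 419 such genes of 533. Peaks that hold the RefSeq start numbered 31 negative and 248 positive, with 129 such genes of 158. Stricter thresholds and narrower limits leave fewer peaks by construction. No paired analysis was possible because the table holds no values per library, and for the same reason no replicate was left out. Adding rows without a gene name was not run, as they carry no feature label.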
